A study of Mus musculus with 5 samples.

Results

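The genes described here are the suppressors of cytokine signalling Socs1 to Socs7, their relative Cish, and the kinases Pim1 and Pim2, which are known as feedback regulators induced by cytokines. They were taken by gene symbol from the platform annotation, which gave 10 genes with 19 probes, out of 19087 genes with 33653 probes that carry 1 symbol. Expression was measured on 5 single-colour arrays (Cy3) of cultured mouse fetal liver pro-B cells, the precursors in which immunoglobulin genes are first rearranged. The tested genotype was Ebf fl/fl, with both alleles of Ebf1 (early B-cell factor 1) flanked by loxP sites, on 3 arrays numbered 4, 5 and 7 in their titles. The other genotype was Ebf+/fl, with 1 such allele, on 2 arrays numbered 3 and 6. Cultures of both genotypes came from embryos 16.5 days after conception and grew on OP-9 stromal cells with interleukin-7. Both also carried ER-Cre, a recombinase that tamoxifen activates, and received 4-hydroxytamoxifen (2 mM as labelled) for 24 hours, followed by 4 days of culture, so no array shows cells without the drug. The labels name neither the promoter that drives Cre nor the embryo behind each array. The p-values therefore measure the spread between these samples, which may be technical. A further number in the titles is 93 on every Ebf fl/fl array and 111 on both Ebf+/fl arrays, and what it stands for cannot be told apart from genotype.

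Cytokine receptors of this class work through Janus kinases, which phosphorylate STAT factors that then enter the nucleus and switch on target genes. Among those targets are SOCS proteins and Cish, which bind receptors or kinases and mark them for degradation or block them, so that the signal dampens itself. Pim kinases are made by the same route and favour growth and survival, and they need no activating phosphorylation. In pro-B cells the main input is interleukin-7, whose receptor signals largely through STAT5.

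Ebf1 itself was checked first. At the probe for AK036716 the level was -4.19, -5.01 and -4.02 on the Ebf fl/fl arrays, against -1.47 and -1.30 on the Ebf+/fl arrays. Here and below, a level is the log2 intensity minus the 75th percentile of the array. The other Ebf1 probes had log2 fold changes of -0.25 and 0.44 and did not pass, and where any of them lies relative to the deleted part was not determined. All 11 pro-B marker genes with a probe lay above the 40th percentile on at least 1 array, and 6 of the 11 were lower in Ebf fl/fl cells. These were Vpreb1, Vpreb3, Igll1, Rag1, Rag2 and Dntt. Cd79a, Cd79b, Pax5, Blnk and Ebf1 at its brightest probe did not pass (log2 fold changes 0.01, -0.04, -0.53, -0.55 and -0.25). The summed intensity of the 11 genes, in units of the 75th percentile of the array, was 746 to 976 on Ebf fl/fl arrays and 1875 to 2015 on Ebf+/fl arrays. The number of arrays limits the precision of every value. In bulk samples fewer cells of a type and less RNA per cell cannot be told apart.

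Of the 10 feedback genes, Socs3 rose about 5-fold in Ebf fl/fl cells and Socs5 fell about 2.4-fold, and the other 8 did not pass the test. The test was limma across 13419 genes, with Benjamini-Hochberg adjustment and a threshold of 0.05. In the same fit 17.3% of all tested genes changed, 8.58% upward and 8.74% downward, so a count of 2 in 10 lies near the share among all genes. Of the changed genes 49.5% were higher, against 38.6% where the arrays were not scaled and 56.4% where they were scaled on the median, and Socs3 and Socs5 passed in the same directions in both. The median log2 fold change was 0.10 over the 10 members and 0.10 over all tested genes. In absolute size the median was 0.40 over the members and 0.38 over all genes. The genotypes did not overlap for 4 of the 10 members (Socs3, Socs4 and Cish higher, Socs5 lower), where 51.7% of all tested genes did not overlap.

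**Figure D1:**
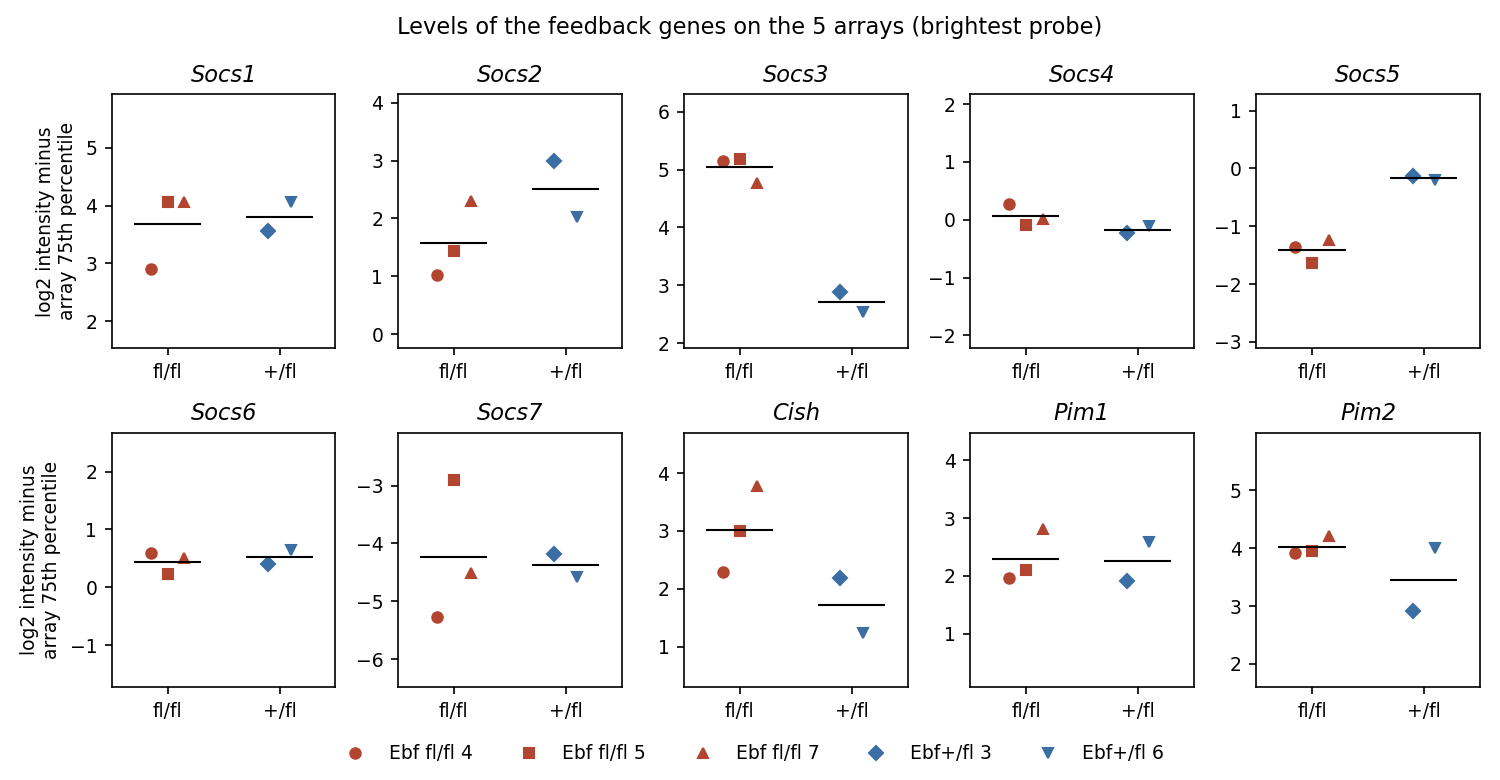
Levels (log2 intensity minus the array's 75th percentile) of the 10 genes at their brightest probe, with 1 point per array, Ebf fl/fl on the left and Ebf+/fl on the right, and a line at each mean. Every panel spans the same height in log2 units. For Socs3 the Ebf fl/fl arrays lie between 4.77 and 5.19, above both Ebf+/fl arrays at 2.89 and 2.54.

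Socs3 encodes an inhibitor that acts chiefly on receptors that share the gp130 chain and on STAT3 signalling. Its single probe read 13872, 11116 and 11757 intensity units on Ebf fl/fl arrays 4, 5 and 7, against 2935 and 2427 on Ebf+/fl arrays 3 and 6. As levels these were 5.16, 5.19 and 4.77 in Ebf fl/fl cells, against 2.89 and 2.54 in Ebf+/fl cells. The genotypes were far apart and each was tight, with the lowest Ebf fl/fl array well above the highest Ebf+/fl array. The mean was 5.04 ± 0.23 (SD, n = 3) in Ebf fl/fl cells and 2.71 ± 0.25 (SD, n = 2) in Ebf+/fl cells. The log2 fold change was 2.32 (SE 0.19, 95% interval 1.87 to 2.78, limma adjusted p = 0.00137), a 5.01-fold rise. By p-value Socs3 ranked 88th and by log2 fold change 197th from the top among the tested genes. It passed under every one of the 15 alternative settings, with log2 fold changes from 2.15 to 2.50 when 1 array was left out.

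The 250 bases before the RefSeq start site of Socs3 are shown because this gene changed most and because the window holds a match to the STAT motif. Capitals mark that match, and the Cish window is set beside it as the other member with a mean more than 2-fold higher. Both are from RefSeq on GRCm38.p6. The Socs3 window is chr11:117969367-117969616 on the minus strand, and the Cish window is chr9:107296409-107296658 on the plus strand.
Socs3: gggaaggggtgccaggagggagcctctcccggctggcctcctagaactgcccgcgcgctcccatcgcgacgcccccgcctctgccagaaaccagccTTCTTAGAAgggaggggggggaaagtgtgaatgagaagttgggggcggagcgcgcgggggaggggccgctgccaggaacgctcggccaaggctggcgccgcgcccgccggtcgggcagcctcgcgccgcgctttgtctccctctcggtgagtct
Cish: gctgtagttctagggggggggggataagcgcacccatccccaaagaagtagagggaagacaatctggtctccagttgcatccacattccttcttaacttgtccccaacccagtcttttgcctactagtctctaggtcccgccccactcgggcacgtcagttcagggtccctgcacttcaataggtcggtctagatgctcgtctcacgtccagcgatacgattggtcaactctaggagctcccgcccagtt

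The STAT motif was searched as TTCNNNGAA, which reads the same on both strands. The Socs3 match, TTCTTAGAA, lies 154 to 146 bases before the start site. It was the only match in the 7 windows found for 6 of the 10 members (Socs1, Socs3, Socs4, Cish, Pim1 with 2 windows, and Pim2). Among 32851 windows of the same length in the table, 7.02% held at least 1 match. The EBF motif, searched as TCCC and GGGA with any 2 bases between them and likewise its own reverse complement, matched in 0 of the 7 windows and in 0.779% of all windows. The single match overlapped no other. A match is a description of these letters only, and no match says only that the letters are not in the window.

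Levels of markers from other cell types are given beside the Socs3 values. The summed stromal marker intensity, in the same units as for the pro-B markers, was 10.7 to 16.0 on Ebf fl/fl arrays and 8.94 to 10.7 on Ebf+/fl arrays. The brightest of these markers, Acta2, stood at 3.86, 3.25 and 3.76 on Ebf fl/fl arrays, against 3.03 and 3.31 on Ebf+/fl arrays, and makes up most of the sum. Its groups overlapped and it did not pass (log2 fold change 0.46). Sparc stood at -1.60, -1.64 and -1.49 on Ebf fl/fl arrays, against -3.31 and -3.10 on Ebf+/fl arrays. Of 11 stromal markers 6 were tested, 1 was higher (Sparc, log2 fold change 1.63) and 0 were lower, while Lum, Dcn and Postn were below the 40th percentile on all arrays. The summed myeloid intensity was 3.36 to 4.10 on Ebf fl/fl arrays and 5.15 to 15.7 on Ebf+/fl arrays. Lyz2 makes up most of that sum. It stood at 1.35, 1.02 and 1.10 on Ebf fl/fl arrays, against 3.84 on Ebf+/fl 3 and 1.98 on Ebf+/fl 6. It did not pass (log2 fold change -1.75, limma adjusted p = 0.0554). Of 7 tested myeloid markers Tyrobp was higher (log2 fold change 1.56) and Itgam lower (-2.09), and Elane, S100a8 and S100a9 were below the 40th percentile on all arrays. For T-cell markers the sum was 1.06 to 1.38 on Ebf fl/fl arrays and 0.468 to 0.936 on Ebf+/fl arrays, with 1 of 5 tested markers higher (Cd3g, which was above the 40th percentile on the Ebf fl/fl arrays only) and Cd8a below the 40th percentile on all arrays. For natural killer and innate lymphoid markers it was 0.251 to 0.303 on Ebf fl/fl arrays and 0.988 to 1.59 on Ebf+/fl arrays, with 2 of 4 tested markers lower (Klrb1c and Nkg7) and Ncr1, Eomes and Gzmb below that percentile throughout. The 2 tested erythroid markers did not pass, Klf1 and Alas2 were below it throughout, and the sums were 0.117 to 0.130 on Ebf fl/fl arrays and 0.103 to 0.146 on Ebf+/fl arrays. The part of these cells in the Socs3 result was not tested.

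Cish, the founding member of the family and a textbook STAT5 target, was higher on every Ebf fl/fl array without passing the test. Its levels were 2.28, 3.00 and 3.78 on Ebf fl/fl arrays 4, 5 and 7, against 2.19 and 1.23 on Ebf+/fl arrays 3 and 6. The genotypes did not overlap, but the gap between Ebf fl/fl 4 and Ebf+/fl 3 was small and both groups were wide. The log2 fold change was 1.31 (SE 0.46, 95% interval 0.20 to 2.42, limma adjusted p = 0.101). It passed only without Ebf fl/fl 4 (log2 fold change 1.68, adjusted p = 0.0383), and it was 0.83 without Ebf+/fl 6 (adjusted p = 0.362).

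Socs1, a direct inhibitor of Janus kinases that limits interferon and common gamma chain cytokine signals, gave overlapping genotypes. It stood at 2.90, 4.07 and 4.07 in Ebf fl/fl cells, against 3.55 and 4.06 in Ebf+/fl cells. Ebf fl/fl 4 was low, and the other 2 Ebf fl/fl arrays were level with Ebf+/fl 6. The log2 fold change was -0.13 (SE 0.38, 95% interval -1.05 to 0.79, limma adjusted p = 0.850), an interval that still includes changes of up to about 2-fold.

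Socs2, best known as a brake on growth hormone and STAT5 signalling, leaned the other way from Cish. At the brighter probe, for NM_007706, the levels were 1.02, 1.43 and 2.29 in Ebf fl/fl cells, against 2.99 and 2.02 in Ebf+/fl cells. Ebf fl/fl 7 lay above Ebf+/fl 6, so the groups overlapped. The log2 fold change there was -0.92 (SE 0.43, 95% interval -1.94 to 0.10, limma adjusted p = 0.185). At the dimmer probe, for AK033206, the levels were -1.55, -1.57 and -0.50 in Ebf fl/fl cells, against 0.62 and -0.11 in Ebf+/fl cells. These groups did not overlap, and the log2 fold change was -1.46 (SE 0.39, limma adjusted p = 0.0521 over 22647 probes). That probe passed without Ebf fl/fl 7 (log2 fold change -1.82, adjusted p = 0.0182), and it did not pass without Ebf+/fl 3 (-1.10, adjusted p = 0.293).

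Socs5, which has been linked to epidermal growth factor receptor turnover and interleukin-4 signalling, was the one member that fell. Its levels were -1.37, -1.64 and -1.23 in Ebf fl/fl cells, against -0.13 and -0.20 in Ebf+/fl cells. The genotypes were clearly separated, and both Ebf+/fl arrays read nearly the same intensity (363 and 364 units), against 151, 98 and 183 units in Ebf fl/fl cells. The log2 fold change was -1.25 (SE 0.20, 95% interval -1.72 to -0.78, limma adjusted p = 0.00955), a level 2.38-fold lower. Without Ebf+/fl 3 the log2 fold change was -1.21 and did not pass (adjusted p = 0.0684), in a fit that leaves 1 Ebf+/fl array and assumes that it varies like the others. Under each of the other 14 alternatives it passed, with log2 fold changes between -1.38 and -0.9997.

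Socs4, Socs6 and Socs7 belong to the long-tailed SOCS proteins, whose roles are less settled. At the brightest Socs4 probe, for AK080408, the levels were 0.28, -0.08 and 0.02 in Ebf fl/fl cells, against -0.23 and -0.11 in Ebf+/fl cells. The groups came close to touching, and the log2 fold change was 0.24 (95% interval -0.18 to 0.67, limma adjusted p = 0.395). The pair of Socs4 probes for NM_080843 had log2 fold changes of 0.01 and -0.00, with intervals within -0.58 and 0.57.

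Socs6 at its brightest probe, for NM_018821, stood at 0.58, 0.23 and 0.50 in Ebf fl/fl cells, against 0.41 and 0.64 in Ebf+/fl cells. The groups overlapped, with a log2 fold change of -0.08 (95% interval -0.51 to 0.34, limma adjusted p = 0.791). A second probe for NM_018821 gave -0.17 and the dim probe for AK142069 gave -0.28, and neither passed. The Socs6 probe for AK053803 was below the 40th percentile on all 5 arrays and was the 1 member probe not tested. Socs7 was dim, at -5.27, -2.90 and -4.51 in Ebf fl/fl cells, against -4.17 and -4.57 in Ebf+/fl cells. Ebf fl/fl arrays 4 and 5 bracketed both Ebf+/fl arrays, and the 95% interval of its log2 fold change ran from -1.50 to 1.79.

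**Figure D2:**
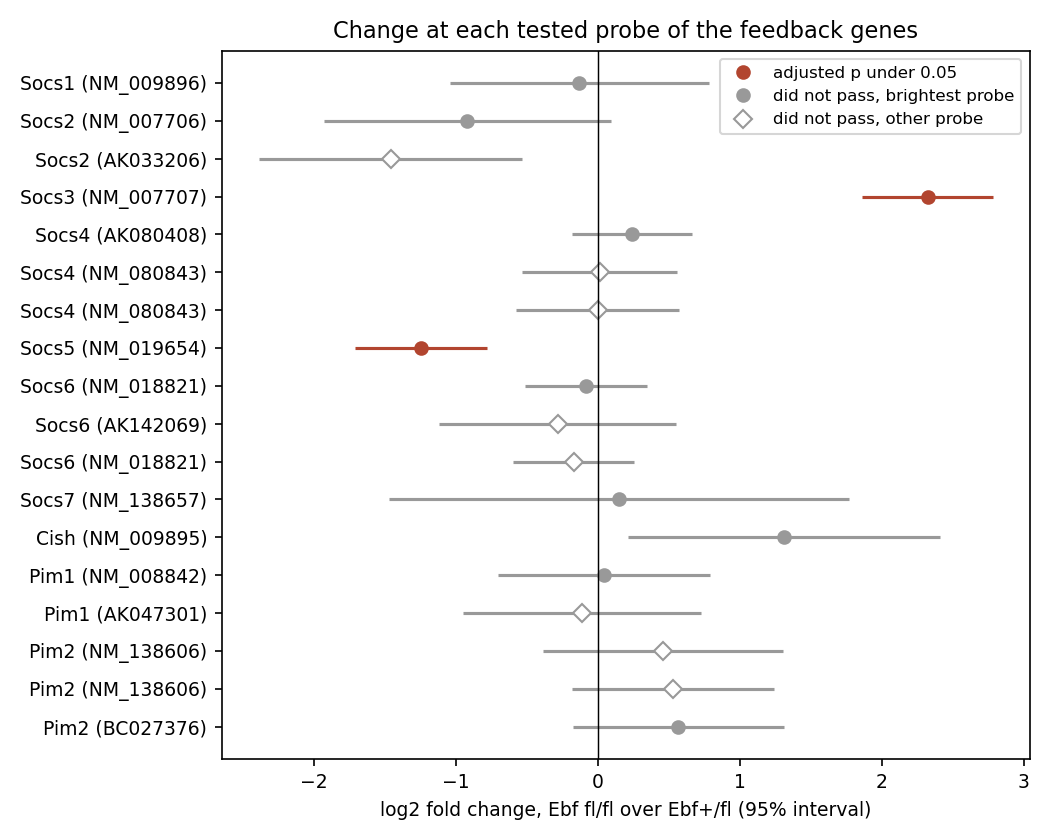
Log2 fold change (Ebf fl/fl over Ebf+/fl, horizontal axis) with its 95% interval for the 18 tested probes of the feedback genes, from the fit over 22647 probes. Red marks the 2 probes past the adjusted p of 0.05, Socs3 at 2.32 and Socs5 at -1.25. Filled grey points are other brightest probes and open diamonds are further probes of a gene.

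None of the 5 probes for Pim1 and Pim2 passed the limma test. Pim1 stood at 1.96, 2.11 and 2.81 in Ebf fl/fl cells, against 1.91 and 2.59 in Ebf+/fl cells at the probe for NM_008842. Each group held a low and a high array, and the log2 fold change was 0.04 (SE 0.31, 95% interval -0.70 to 0.79, limma adjusted p = 0.945). The dimmer Pim1 probe, for AK047301, gave -0.11.

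Pim2, a kinase of the same family that supports lymphocyte survival, stood at 3.91, 3.95 and 4.22 in Ebf fl/fl cells, against 2.91 and 4.00 in Ebf+/fl cells at the probe for BC027376. The Ebf fl/fl arrays were alike, Ebf+/fl 6 lay among them, and Ebf+/fl 3 lay about 1 log2 unit lower. The log2 fold change was 0.57 (SE 0.31, 95% interval -0.18 to 1.31, limma adjusted p = 0.257), and the 2 probes for NM_138606 gave 0.46 and 0.53. The value turned on which Ebf+/fl array was used. Without Ebf+/fl 6 it was 1.11 and passed (adjusted p = 0.0309), and without Ebf+/fl 3 it was 0.02 (adjusted p = 0.968). Of the probes for NM_138606 the brighter passed without Ebf+/fl 6 (1.05, adjusted p = 0.0405) and the dimmer did not (0.99, adjusted p = 0.118).

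Over all 18 tested member probes, 2 passed (1 higher and 1 lower), where 14.5% of all tested probes passed. The genotypes did not overlap at 5 of the 18 probes, where 50% of all tested probes did not overlap. At all Pim probes and at the Socs2 probe for NM_007706 the 2 Ebf+/fl arrays differed from each other by more than the genotypes did. The same held at the Socs1 and Socs7 probes, the Socs4 probes for NM_080843 and the Socs6 probes for NM_018821. Ebf+/fl 6 exceeded Ebf+/fl 3 by 1.04 to 1.09 log2 units at the 3 Pim2 probes and by 0.68 and 0.82 at the Pim1 probes. It was lower than Ebf+/fl 3 at Cish and at both Socs2 probes, where Ebf+/fl 6 minus Ebf+/fl 3 was -0.95, -0.96 and -0.73. Cish and the Socs2 probe for AK033206 changed more between genotypes (1.31 and -1.46) than between these arrays. For Socs5 the difference between the Ebf+/fl arrays was -0.08 and for Socs3 it was -0.35, both small beside their changes between genotypes.

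**Figure D3:**
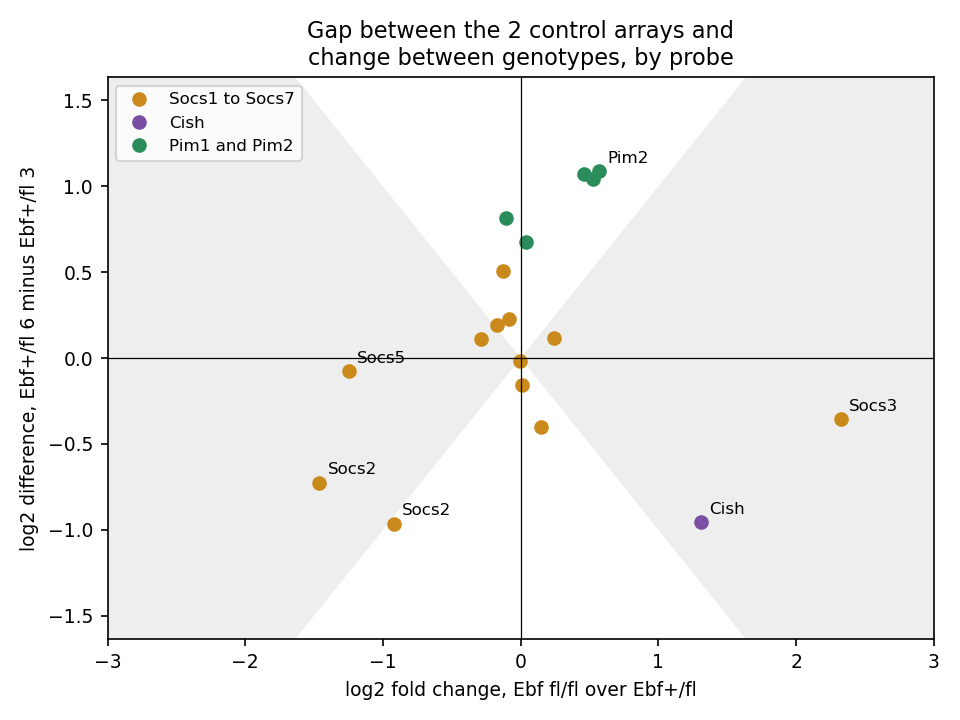
Difference between the Ebf+/fl arrays (6 minus 3, log2 units, vertical axis) against the log2 fold change between genotypes (Ebf fl/fl over Ebf+/fl, horizontal axis), with 1 point for each of the 18 tested probes. In the shaded area the change between genotypes is larger in size than the difference between the Ebf+/fl arrays. Socs3 and Socs5 lie deep inside it, and all 5 Pim probes lie outside it. Also outside are Socs1, Socs7, the Socs2 probe for NM_007706, the Socs4 probes for NM_080843 and the Socs6 probes for NM_018821.

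**Figure D4:**
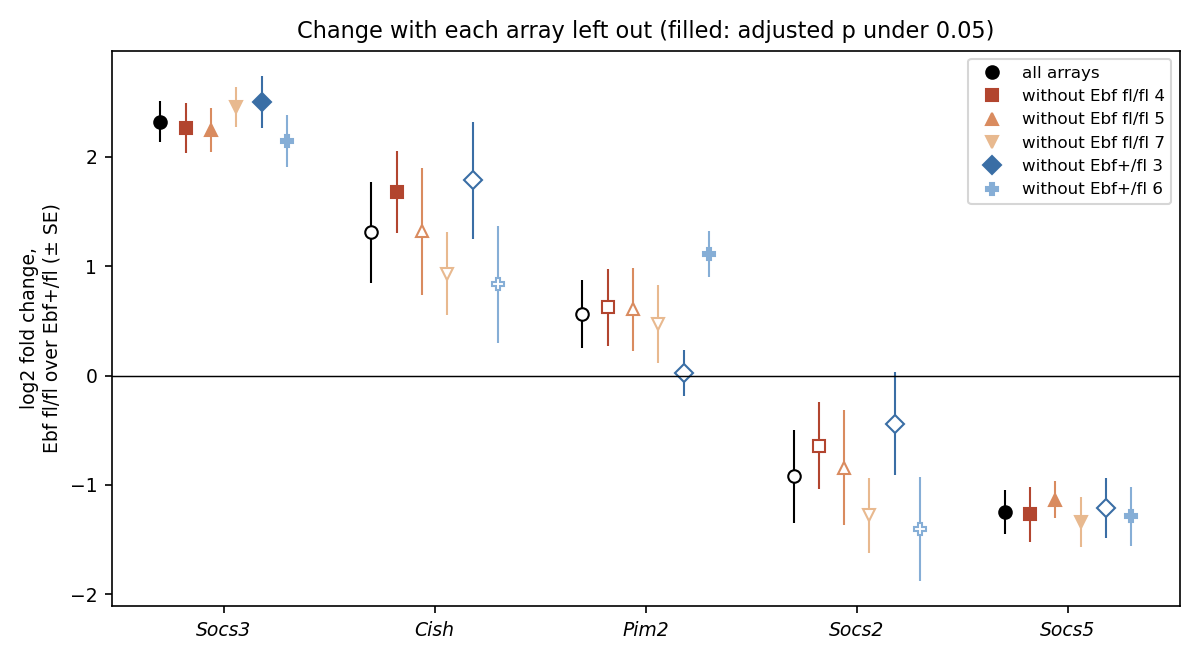
Log2 fold change (Ebf fl/fl over Ebf+/fl, ± SE) of 5 members with all arrays and with each array left out in turn, and filled symbols where the adjusted p was under 0.05. Socs3 stays between 2.15 and 2.50, and Pim2 ranges from 0.02 without Ebf+/fl 3 to 1.11 without Ebf+/fl 6.

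Genes upstream of the feedback regulators were read from lists of pathway genes, which were chosen with earlier results of these data known. Of all tested genes 8.58% were higher and 8.74% lower, the shares to set beside each list count below. Among receptors of the cytokine family 6 of 26 tested genes were higher and 5 lower, with a median log2 fold change of -0.11, against 0.10 for all genes. Il7r, the interleukin-7 receptor alpha chain, fell by 3.86 on the log2 scale, to -0.26, 0.40 and 1.74 in Ebf fl/fl cells, against 4.54 and 4.44 in Ebf+/fl cells (limma adjusted p = 0.00592). Il2ra, the interleukin-2 receptor alpha chain, and Il5ra, that of the interleukin-5 receptor, had log2 fold changes of -3.25 and -3.47. Il6ra, the interleukin-6 receptor alpha chain, rose by 2.79 (adjusted p = 0.00261), and Lifr, which pairs with gp130, by 2.90 (adjusted p = 0.0327). Il4ra had a log2 fold change of 1.62. Il6st, the gene for gp130 itself, had a log2 fold change of 0.99 (limma adjusted p = 0.0184). Osmr, also in this list, gave -0.19 and did not pass.

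The receptor calls depended in part on single arrays. Il7r, Il2ra and Il6ra passed with each array left out. Lifr did not pass without Ebf fl/fl 5, Ebf fl/fl 7 or Ebf+/fl 6 (adjusted p = 0.104, 0.0671 and 0.0574), and its log2 fold change was 1.74 without Ebf+/fl 6. Ebf+/fl 6 was below the 40th percentile for Lifr, and the log2 fold change was 1.14 with 50 intensity units added and 1.79 as the mean of its probes. It also did not pass with no filter (0.0514) or with variances not fitted to intensity (0.0621). Il4ra did not pass without Ebf fl/fl 5 (adjusted p = 0.0542), and its log2 fold change was 1.08 without Ebf+/fl 3. Il5ra did not pass without Ebf+/fl 3 (0.0772). Ebf fl/fl 4 was below the 40th percentile for Il5ra, and with 50 units added its log2 fold change was -1.34. The receptor count fell to 6 without Ebf+/fl 3 and likewise without Ebf+/fl 6.

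Among Janus kinases and STAT factors 2 of 10 tested genes were higher and 1 lower, with a median log2 fold change of 0.34. Jak1, the kinase bound to the interleukin-7 receptor alpha chain and to gp130, rose by 1.38 (SE 0.17, limma adjusted p = 0.00464), and Stat4 by 0.97. Jak3, the partner of the common gamma chain, had a log2 fold change of -0.58 (adjusted p = 0.0401), which did not pass with any 1 array left out (0.0535 to 0.222). As the mean of its probes Jak3 had a log2 fold change of -0.22 (adjusted p = 0.296), and it did not pass with no filter (0.0506) or with variances not fitted to intensity (0.0786). Stat5a and Stat5b, the paired factors through which interleukin-7 largely signals, had log2 fold changes of -0.02 and 0.22 and did not pass. Nor did Stat3, with a log2 fold change of 0.81 (limma adjusted p = 0.170).

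Other negative regulators of cytokine signalling gave 3 higher and 1 lower of 17 tested genes, with a median log2 fold change of 0.22. Ptpn6, the phosphatase SHP-1, rose by 1.54 (SE 0.19, limma adjusted p = 0.00395), and did not pass as the mean of its probes (0.87, adjusted p = 0.0800). Ptpn1 and Ptprc, both phosphatases that act on Janus kinases, had log2 fold changes of 0.74 and 0.58, and Spred2, an inhibitor of the Ras pathway, of -1.97. Ptprc did not pass with any 1 array left out (0.0537 to 0.200). Ptpn1 passed only without Ebf fl/fl 7 (0.0424 to 0.198 over the 5 arrays) and Spred2 only without Ebf fl/fl 4 (0.0478 to 0.256). With all arrays kept, Spred2 did not pass under 5 of the 10 alternatives (0.0503 to 0.0802), and its log2 fold change was -0.87 with 50 units added. Ptpn1 and Ptprc did not pass with variances not fitted to intensity (0.0642 and 0.0693), nor Ptprc without scaling (0.138). The count of this list was 2 without Ebf fl/fl 4 or Ebf fl/fl 5 and 1 without either Ebf+/fl array, and it was also 1 with variances not fitted to intensity.

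The ubiquitin ligase partners that SOCS proteins recruit through their shared box gave 0 calls in limma among 6 tested genes (1, Rnf7, at an unadjusted p under 0.05), with a median log2 fold change of 0.03. Elob and Eloc, the elongins that bind the box, had log2 fold changes of 0.32 and -0.20. The largest fitted change was in Rbx1, a RING subunit, at 0.44 (adjusted p = 0.153).

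Among Pim substrates 1 gene was higher and 2 lower of 11 tested, a list that also holds the third kinase, Pim3 (0.35, limma adjusted p = 0.341). Cdkn1a, a cell-cycle inhibitor, fell by 2.57, Myc rose by 1.24, and Cdc25c, a mitotic phosphatase, had a log2 fold change of -3.71. The median of the list was -0.27. Cdc25c did not pass without Ebf fl/fl 4, Ebf fl/fl 5, Ebf+/fl 3 or Ebf+/fl 6 (adjusted p = 0.0554, 0.131, 0.237 and 0.0986). Ebf fl/fl 4 and Ebf fl/fl 5 were below the 40th percentile for Cdc25c, so its fold is set against background. With all arrays kept it did not pass under 6 of the 10 alternatives (0.0516 to 0.0844), and its log2 fold change was -1.32 with 50 units added.

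Among other STAT5 target genes, of 10 tested, 5 were lower and 0 higher, with a median log2 fold change of -1.22, where 8.74% of all tested genes were lower. The list was chosen with earlier results of these data known, so the count describes these genes only. Whether this list differs from the feedback genes was not tested. Osm, a cytokine gene, fell by 1.98, Cdkn2c, an inhibitor of G1 kinases, by 1.74, and Gfi1, a transcriptional repressor, by 1.52. Cdkn2c did not pass without Ebf+/fl 3 (adjusted p = 0.0767), and Osm had a log2 fold change of -1.20 with 50 units added. The count of lower genes was 2 without Ebf+/fl 3, and 3 without Ebf+/fl 6 or without Ebf fl/fl 5. The summed intensity of this list was 136 to 157 on Ebf fl/fl arrays and 155 to 156 on Ebf+/fl arrays, so its sums overlapped. Its brightest genes, Bcl2 and Mcl1, make up most of that sum and did not pass (log2 fold changes -0.02 and 0.12). The sum therefore says little about the 5 lower genes. The pro-B marker sums given above were lower in Ebf fl/fl cells, and their part in this list was not tested.

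**Figure D5:**
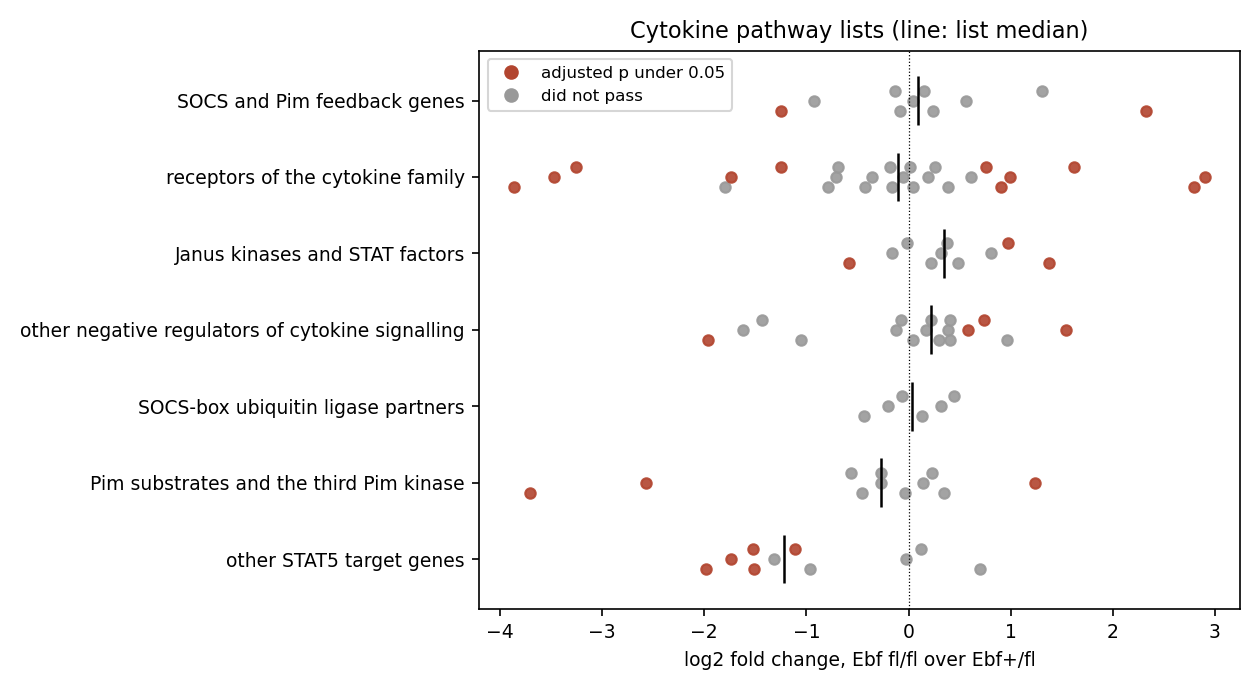
Log2 fold change (Ebf fl/fl over Ebf+/fl, horizontal axis) of each tested gene of the feedback genes and of 6 pathway lists, 1 row per list, with a line at each median. Red marks genes with an adjusted p under 0.05. The median is 0.10 for the feedback genes and -1.22 for the other STAT5 target genes. The lists were chosen with earlier results of these data known.

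The tested genes nearest in pattern to Socs3 over the 5 arrays, by Euclidean distance between mean-centred levels, were 1700001P01Rik, Alcam and Rhobtb2, at distances of 0.24, 0.25 and 0.29 log2 units. Nearest to Socs5 were Cav2, Tmem106c and Abcg2, at distances of 0.08, 0.12 and 0.13. Within the feedback genes the closest pair was Socs4 and Socs6 at 0.39, followed by Socs6 and Pim1 at 0.75 and Pim1 and Pim2 at 0.77. With 5 arrays such distances describe likeness in these samples only.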

How the data were processed

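The authors deposited 1 linear intensity per array feature, and the submitters' processing notes name Agilent Feature Extraction without a version. Background handling and spot flags were not used here. Of 45018 features, 33653 had 1 symbol. Array sums ranged from 66780400 to 79527100, and no pair of arrays held identical values. Here log2 intensities minus each array's 75th percentile were tested with limma 3.58.1 (R 4.3.3), by lmFit and trended eBayes, two-sided, with Benjamini-Hochberg adjustment. Genes were taken at the probe with the highest mean, and tested where at least 2 of 5 arrays exceeded the array's 40th percentile: 13419 genes, or 22647 probes. That percentile stands in for detection flags. Members and lists were chosen with earlier results of these data known. Text names all members, up to 3 list genes per direction past the threshold (or the largest), fixed pathway genes (Il7r, Jak1, Jak3, Stat5a, Stat5b, Pim3, Elob, Eloc), and the 3 nearest patterns. A few further list genes are named outside this rule. Some list genes were not analysed here. Alternatives were 3 scalings, an added intensity of 50, filters, variance models, array weights, probe means and leaving out each array.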

Additional observations from a re-analysis of the deposited data

How the results depend on the processing

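Socs3 and Socs5 were the members past the threshold under each of the 10 alternatives that keep all arrays, with log2 fold changes of 2.19 to 2.38 and -1.38 to -0.9997. Leaving out each array gave 1 to 3 changed members, 1 to 4 changed member probes, 703 (without Ebf+/fl 3) to 2009 changed genes (1274 to 1449 without Ebf fl/fl 4, Ebf fl/fl 5 or Ebf+/fl 6) and 933 to 2729 changed probes. Without scaling 38.6% of changed genes were higher and with median scaling 56.4%, against 49.5% in the reported fit. The median log2 fold change of all genes was -0.04 without scaling and 0.15 with median scaling, in place of 0.10. The dim Socs2 probe for AK033206 passed with 50 added (-1.21, adjusted p = 0.0307), with the stricter filter (0.0446) and with array weights (0.0466). Some values near 0 changed sign, none of them past the threshold. These were Pim1 without scaling (-0.0901), with quantile normalisation (-0.0198), with array weights (-0.0315) and as a probe mean (-0.034), Socs7 with array weights (-0.33), and the Socs6 probe for AK142069 with 50 added (0.0129). The Socs4 probes for NM_080843 gave -0.12 without scaling (feature 39477), and 0.0529, 0.0698, 0.0293 and 0.134 with median scaling, quantile normalisation, 50 added and array weights (feature 40090). Stat5a gave 0.0349 with median scaling. Leaving out arrays, sign changes fell within -0.39 to 0.26 for Socs1, -0.20 to 0.0314 for Socs6, -0.52 to 0.67 for Socs7, -0.30 to 0.38 for Pim1 and -0.52 to 0.30 for its probe for AK047301. They fell within -0.077 to 0.99 for a Pim2 probe for NM_138606, -0.14 to 0.13 and -0.18 to 0.14 for the Socs4 probes, and -0.18 to 0.13 for Stat5a. The causes were not tested. No paired analysis was possible because the genotypes share no sample number. With 2 Ebf+/fl arrays, a member with a wide interval, such as Socs7, cannot be called steady.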
